A study of Homo sapiens with 9 samples.

Results

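RNA from HEK293 cells in which UBE3D had been put back after its knockout (addback) was compared with RNA from the knockout cells (KO), gene by gene. The members were taken by column name from the deposited count table and came to 6 of the 9 libraries, 3 per group. Their genotypes are given as UBE3D addback and UBE3D KO. The other 3 libraries carry the genotype UBE3D WT; they served to estimate the spread between libraries and are given beside the results. HEK293 is a line derived from human embryonic kidney, and all 9 cultures are described alike, grown in DMEM with serum and antibiotics, with poly(A) RNA prepared after TRIzol extraction. The labels put CRISPR/Cas9 knockout of UBE3D on all 9 samples, WT included, and mark every sample as pooled. The vector and promoter of the added copy, the time since it was added and the number of knockout clones were not found in the labels. Whether replicates are separate cultures is not stated either, and p-values then measure only the spread between these libraries, which may be technical.

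UBE3D is an E3 ubiquitin ligase. The series concerns its link to CPSF3 (CPSF73), an endonuclease that cleaves pre-mRNA ahead of polyadenylation and, with other partners, trims replication-dependent histone pre-mRNA. Many of the genes that differed here belong to the interferon response. In that response sensors of foreign or misplaced nucleic acid lead to secretion of type I and type III interferons, receptors on the cell surface pass the signal through JAK kinases to a transcription factor complex that includes STAT2 and IRF9, and this complex binds promoters of a large set of interferon-stimulated genes, whose products block viral replication and raise antigen presentation.

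Total counts were 26314225 to 37508780 per KO library, 27946628 to 31482735 per addback library and 23088295 to 35448612 per WT library. The KO libraries lacked a background of reads over coding exons that the addback and WT libraries carried. Odorant receptor genes, which are silent in most tissues, took 204 to 288 counts per KO library, 8867, 41605 and 42074 in addback libraries 1, 2 and 3, and 10062 to 39192 per WT library. The estimated background was 0% of the counts in each KO library and 2.57%, 11.2% and 11.6% of those in the addback libraries, and its origin was not tested. Scaling factors were therefore taken from 5961 genes with little background. Levels are CPM (counts scaled to library size) on that scale, fold changes are log2 of addback over KO with the standard error of the fit, and a gene was called where edgeR's Benjamini-Hochberg adjusted p was under 0.05. Of 21994 genes tested, 11339 (51.6%) were called higher and 1259 (5.72%) lower in addback; of 384 odorant receptors tested 381 (99.2%) were called higher, so a call at a low level is read beside that share. The account below rests on 5016 well expressed genes (mean of at least 50 CPM in KO and in addback), 2468 noncoding genes and 6707 genes far above background (estimated background at most 10% of the addback mean). Of the genes far above background 1403 (20.9%) were called higher and 1168 (17.4%) lower. Their limit uses the addback mean alone, so genes near 0 CPM in KO enter through a high addback level. The excess of higher calls among them is therefore partly built in. At the edge of the first group, SLC44A2 lay inside with a KO mean of 50.03 CPM and PIP4K2A outside with an addback mean of 49.99 CPM.

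Among the well expressed genes 831 (16.6%) were called higher and 1080 (21.5%) lower in addback. The levels of 2756 of them (54.9%) did not overlap between the 3 addback and the 3 KO libraries. The median fold was -0.01, and 15 genes (0.299%) were at least 2-fold higher and 1 gene (0.0199%) at least 2-fold lower. With the estimated background subtracted the counts were 577 higher (11.5%) and 672 lower (13.4%), with addback 1, the library of least background, as the only addback library 224 and 161, and without KO library 2 they were 566 and 797. Scaling factors from all genes, which let the background into the scale, moved the median fold of the well expressed genes by -0.34, to -0.35, and gave 39 higher and 3319 lower. A rise of less than about 0.34 on the log2 scale therefore changes sign with that scaling, and medians under it are given for the gene groups.

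**Figure D1:**
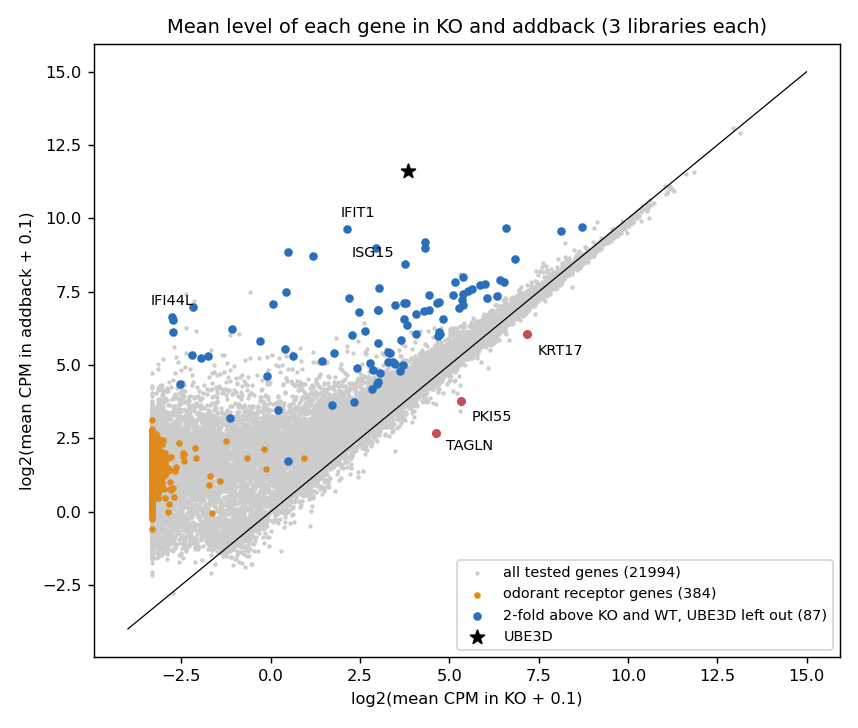
Mean level of each of 21994 tested genes in the 3 KO libraries (x axis) and the 3 addback libraries (y axis), both as log2(CPM + 0.1); each point is 1 gene and the line marks equal levels. Odorant receptors (orange) and many other genes lie near 0 CPM in KO and above the line, the genes at least 2-fold above both KO and WT (blue) lie above it over a wide range of levels, the star is UBE3D, and KRT17, PKI55 and TAGLN (red) lie below.

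UBE3D itself (chromosome 6, 82892398-83065841, minus strand, hg38) was measured at 13.0, 15.5 and 14.3 CPM in KO libraries 1, 2 and 3, at 3336, 3339 and 2801 CPM in the addback libraries and at 19.5, 21.5 and 26.8 CPM in the WT libraries. Every addback library was far above every other, and RNA of the gene was still counted in all 3 KO libraries. The fold was 7.79 ± 0.14 (edgeR adjusted p = 3.72e-08; exact two-sided permutation p = 0.1, the smallest that 3 against 3 libraries can give). Transcripts from the added copy and from the edited gene cannot be told apart in counts per gene. CPSF3 (chromosome 2, 9423537-9473110, plus strand) stood at 119, 116 and 116 CPM in KO and 109, 112 and 115 CPM in addback. The groups did not overlap, but the fold of -0.06 ± 0.04 missed the threshold (edgeR adjusted p = 0.218), which it passed with factors from all genes (fold -0.41). UBE2C and CCNB1, an E2 enzyme and a mitotic cyclin linked to UBE3D in other work, fell by 0.15 and 0.26 on the log2 scale (edgeR adjusted p = 0.0285 and 0.00192), but with the background subtracted UBE2C was at -0.11 and not called (edgeR adjusted p = 0.125).

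The genes that stood far apart from both KO and WT were mostly interferon-stimulated. Because WT carries the coding background too, genes at least 2-fold and significantly higher in addback than in KO and than in WT were set apart: 88 of 21994 (0.400%), with a median fold over KO of 2.60. The background itself differs 4.59-fold between addback 2 and 3 and addback 1 over the odorant receptors (median ratio), and the ratio was 1.04 over these 88 genes. A call against both groups favours genes with little spread among the addback libraries. A low ratio is therefore partly set by the selection and is no separate check on the background. Of the 88, 60 are members of the interferon lists used here, which were chosen with earlier results of these data known. The other 28 include UBE3D, the long noncoding RNA BISPR, the helicases DDX60 and DDX60L, APOL2 and APOL6, HELZ2, NMI, ZNFX1, C19orf66 (an inhibitor of viral frameshifting), TRIM38, TRIM56, MLKL, CSF1, LAMP3 and SERPING1. The rest are PNPT1, SHISA5, OGFR, CD68, TP53I3, ADM2, PVRL4, REC8, PLEKHA4, SYTL1, UNC5B-AS1 and LOC100419583. With the background subtracted SERPING1, REC8, PLEKHA4 and SYTL1 were not called over KO. Nor was UNC5B-AS1 in that fit, a noncoding gene with no estimated background to subtract. In bulk RNA, more responding cells and more RNA per responding cell cannot be told apart. Under the other settings run, from 71 (with 2 times the estimated background subtracted) to all 88 of these genes were still called higher, and 81 with addback 1 as the only addback library.

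Promoters of these genes were searched for the core of the element that the complex with STAT2 and IRF9 binds, which IRF factors share: GAAANNGAAA, or TTTCNNTTTC on the other strand, overlapping matches counted. RefSeq promoter windows (GRCh38.p14, 250 bases before to 50 after each start site) were available for 64 of the 88 genes, and 35 of these (54.7%) held a match, against 1195 of all 27305 genes with a window (4.38%). Among well expressed genes called higher the share was 5.22% and among those called lower 2.91%. A match is a description of the letters, and no match, as in STAT2, IRF9, OAS1 or ADAR, says only that they are not in this window. The stretches around the matches (capitals) are shown for IFIT1 and RSAD2, which carry it as TTTCNNTTTC, and for ISG15, IFI6 and BST2, in which matches overlap or repeat; the genes' values follow. They lie at chr10:89392492-89392544 (plus strand), chr2:6877617-6877656 (plus), chr1:1013369-1013414 (plus), chr1:27672261-27672363 (minus) and chr19:17405730-17405775 (minus), with the first match 116, 145, 113, 156 and 130 bases before the start site.
IFIT1: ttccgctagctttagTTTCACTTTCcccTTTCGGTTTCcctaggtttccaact
RSAD2: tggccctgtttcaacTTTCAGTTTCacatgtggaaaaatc
ISG15: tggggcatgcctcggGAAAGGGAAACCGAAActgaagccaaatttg
IFI6: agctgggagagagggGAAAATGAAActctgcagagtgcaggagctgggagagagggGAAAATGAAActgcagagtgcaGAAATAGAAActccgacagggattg
BST2: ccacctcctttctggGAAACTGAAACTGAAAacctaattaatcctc

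Interferon genes themselves could not be separated from the background. All 21 tested ligands were called higher than in KO, like nearly all odorant receptors, but none was called higher than WT with at least a 2-fold difference, and their median fold over WT was 0.17. IFNB1, the type I interferon most widely made outside blood cells (chromosome 9, 21077105-21077944, minus strand), had 0 counts in KO and 1.27, 2.43 and 2.97 CPM in addback, at least 70.4-fold higher (floor of 3 counts over the KO group), beside 0.437, 0.553 and 1.54 CPM in WT. IFNL1, a type III interferon, was at 5.1, 8.83 and 8.54 CPM in addback and 0.974, 7.1 and 2.68 CPM in WT, so these groups overlapped. It had 2 counts over the KO libraries, a ratio of 356 with an exact 95% interval of 98.1 to 2942.6 that covers counting error only. Both genes were singled out after their values were seen.

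The transcription factors downstream of the interferon receptors rose, while IFNAR1 and JAK1 did not. STAT2 (chromosome 12, 56341598-56360253, minus strand), a transcription factor of the type I and type III responses, was at 60.9, 51.5 and 61.04 CPM in KO, 208, 177 and 253 CPM in addback and 73.1, 71.7 and 68.5 CPM in WT. Every addback library stood above every other library, with a fold over KO of 1.88 ± 0.12 (edgeR adjusted p = 6.34e-05). IRF9, which brings the complex to DNA, went from 17.3, 15.9 and 16.6 to 107, 101 and 116 CPM (fold 2.70 ± 0.10). IRF7, the factor that amplifies interferon production, rose from 12.4, 9.04 and 11.95 to 139, 113 and 146 CPM (fold 3.57 ± 0.18), and IRF1 by a fold of 1.59 ± 0.13. For none of these genes did addback overlap KO or WT. IFNAR1, a chain of the type I receptor, was at 103, 104 and 104 CPM in KO and 93.5, 89.1 and 93.5 CPM in addback and fell by 0.18 on the log2 scale (adjusted p = 0.00292). The kinase JAK1 (fold -0.04 ± 0.04) was not called, and IRF3, the factor that starts interferon transcription, was higher by 0.17 (adjusted p = 0.0294) but at -0.16 with factors from all genes. Of 8 well expressed members of this list 5 were called higher and 1 lower (median 0.17, and -0.17 with factors from all genes).

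Sensors of nucleic acid that are themselves interferon-stimulated rose. Of 5 well expressed members of the sensor list 3 were called higher (TRIM25, EIF2AK2 and ADAR) and the adaptors MAVS and TRAF3 were not called (list median 1.01, and 0.67 with factors from all genes). DDX58 (RIG-I), a sensor of viral RNA ends, was at 8.73, 7.65 and 7.75 CPM in KO and 199, 159 and 239 CPM in addback, with 16.8, 18.7 and 33.05 CPM in WT. IFIH1 (MDA5), which reads long double-stranded RNA, was at 5.81, 5.29 and 5.09 CPM in KO and 108, 88.9 and 136 CPM in addback, with 9.74, 12.9 and 28.4 CPM in WT. Both were thus higher in every addback library than in any other, by folds over KO of 4.63 ± 0.27 and 4.37 ± 0.39 (edgeR adjusted p = 3.68e-05 and 0.000407). EIF2AK2 (PKR), the kinase that halts translation on double-stranded RNA, went from 63.6, 60.7 and 66.3 to 214, 189 and 248 CPM (fold 1.77 ± 0.10), and TRIM25, a ubiquitin ligase of the RIG-I pathway, from 116, 108 and 117 to 408, 331 and 444 CPM (fold 1.79 ± 0.10). ADAR, which edits double-stranded RNA, went from 427, 404 and 427 to 864, 753 and 911 CPM, a fold of 1.01 ± 0.06 that was smaller but without overlap. The DNA sensor IFI16 rose by 2.29 ± 0.18. The adaptor MAVS, through which RIG-I and MDA5 signal, had a fold of -0.12 ± 0.05 (adjusted p = 0.0578) and was not called.

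**Figure D2:**
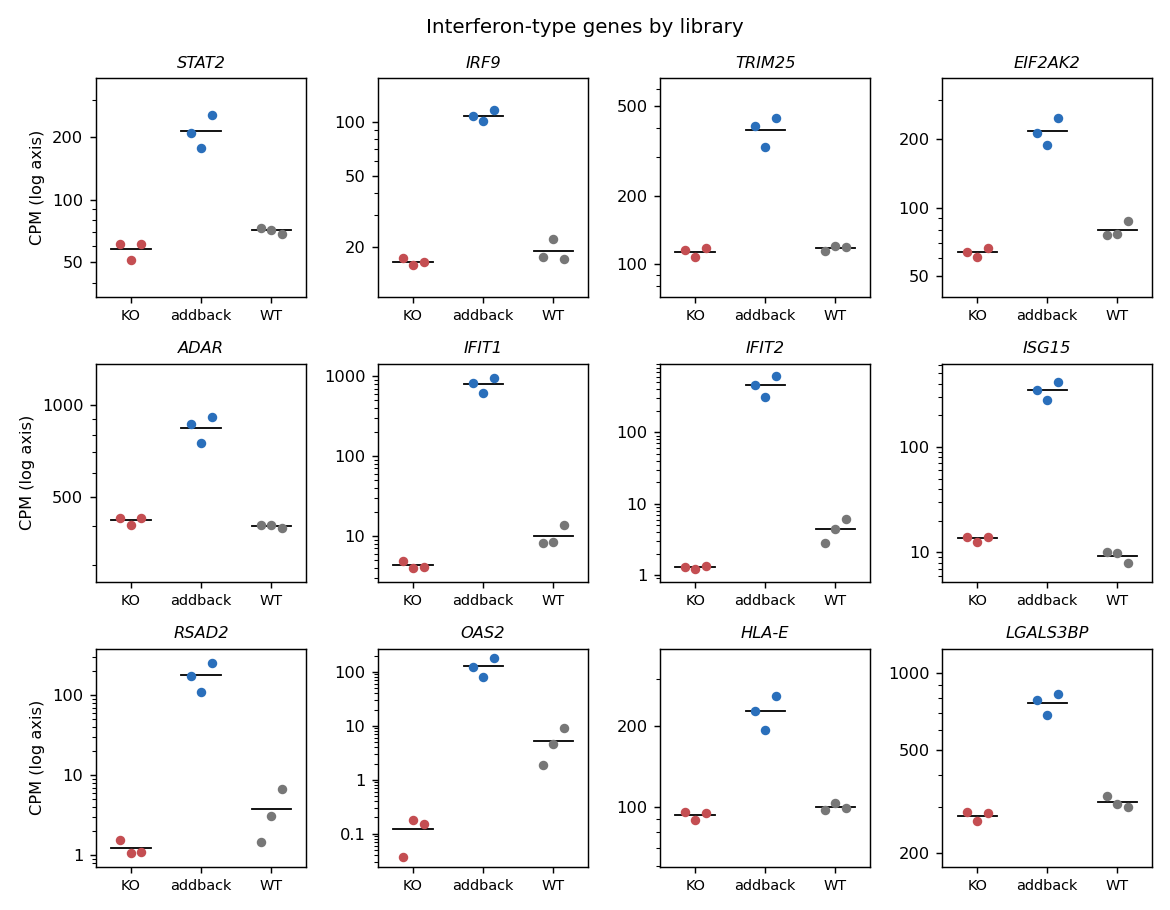
Level in each library, in CPM on log axes, of 12 interferon-stimulated genes in KO, addback and WT; each point is 1 library and the bar is the group's mean. The 3 addback libraries lie above all KO and WT libraries in every panel, with addback 2 the lowest of the 3.

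Antiviral effectors stood above both KO and WT. All 44 tested were called higher than in KO, beside 51.6% of all tested genes, and 32 of the 44 were at least 2-fold above WT too. IFIT1, which binds RNA with a viral type of cap, stood at 4.82, 4.002 and 4.12 CPM in KO, 815, 621 and 958 CPM in addback and 8.03, 8.39 and 13.5 CPM in WT. IFIT2, its relative, went from 1.31, 1.21 and 1.36 to 466, 315 and 612 CPM, with 2.82, 4.45 and 6.13 CPM in WT. No addback library was near a library of the other groups, and the folds over KO were 7.54 ± 0.25 and 8.47 ± 0.36 (edgeR adjusted p = 1.42e-06 and 7.28e-06). IFI6 was at 7.92, 6.68 and 8.24 CPM in KO, 524, 407 and 594 CPM in addback and 12.7, 11.9 and 11.8 CPM in WT, and RSAD2 (viperin), an enzyme that makes a chain-terminating nucleotide, at 1.53, 1.07 and 1.1 CPM in KO, 176, 112 and 256 in addback and 1.44, 3.12 and 6.72 in WT. BST2 (tetherin), which holds budding virions at the membrane, was at 0.694, 0.607 and 0.845 CPM in KO, 53.5, 40.2 and 73.9 in addback and 1.24, 2.94 and 2.59 in WT. Each of these 3 genes was lowest in addback 2 and highest in addback 3 among the addback libraries, with folds over KO of 6.05 ± 0.16, 7.21 ± 0.53 and 6.26 ± 0.39. IFIT1, IFI6, RSAD2, BST2, IRF9, IRF1, ADAR and IFI16 were named after their values were seen.

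Several effectors were almost silent in KO, so their size is given as a ratio of scaled counts with an exact 95% interval that covers counting error only. IFI44L had 4 counts over the KO libraries and 8647 over the addback libraries, a ratio of 2329.6 (909.5 to 8552). OAS1, which makes the second messenger that activates RNase L, had 5 and 8178 counts (ratio 1763, 755 to 5429.9), and OAS2 12 and 11110 (ratio 998, 571 to 1931). IFI44L was at 94.7, 73.9 and 129 CPM in addback and 1.78, 2.27 and 8.67 CPM in WT. OAS1 was at 90.02, 67.3 and 124 CPM in addback and 1.85, 5.39 and 7.63 CPM in WT, and OAS2 at 122, 81.2 and 179 and 1.85, 4.54 and 9.31 CPM, respectively. Here too the addback libraries lay above every WT library. The ratio was 345 for MX2 (192 to 691), 321 for XAF1 (147 to 877), 239 for OASL (145 to 428) and 194 for TRIM22 (140 to 277). MX2, XAF1 and OASL were not among the genes far above background. Their estimated background was 5.35, 2.25 and 3.84 CPM, beside addback means of 40.3, 20.5 and 38.1 CPM. MX1, by contrast, was at 10.7, 17.3 and 21.1 CPM in addback and 4.5, 14.3 and 11.1 CPM in WT, which overlapped, with a KO level of 2.78, 2.47 and 2.28 CPM; like MX2 and XAF1 it was chosen after its values were seen.

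ISG15, a ubiquitin-like protein that is conjugated to others during the response, was at 14.1, 12.6 and 13.9 CPM in KO, 349.7, 278 and 414 CPM in addback and 10.05, 9.81 and 7.9 CPM in WT. The fold was 4.68 ± 0.16 (edgeR adjusted p = 1.42e-06), with WT no higher than KO. UBE2L6, the E2 enzyme of this conjugation, rose by 3.77 ± 0.32, and 5 of the 6 genes of the conjugation list were at least 2-fold above both other groups. DTX3L, a ubiquitin ligase that works with PARP9, rose from 19.3, 23.4 and 21.2 to 167, 139.7 and 191 CPM (fold 2.96 ± 0.14) and PARP12 by 2.83 ± 0.17. LGALS3BP, a secreted glycoprotein, PNPT1, a mitochondrial exonuclease, and SHISA5 were well expressed in both groups and rose by 1.46 ± 0.07, 1.47 ± 0.10 and 1.25 ± 0.07. Of the 15 well expressed genes at least 2-fold higher than in KO, 10 (0.199% of the well expressed) were at least 2-fold above WT too.

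Genes of antigen presentation by HLA class I rose together and by less. All 7 well expressed members of the list were called higher, with a median fold of 0.70 (0.36 with factors from all genes, 0.75 with the background subtracted). HLA-E, the ligand of an inhibitory receptor of natural killer cells, was at 95.4, 89.3 and 94.9 CPM in KO and 228, 193 and 259.5 CPM in addback (fold 1.28 ± 0.09). HLA-B went from 200.5, 185 and 195 to 335, 294 and 353 CPM and B2M, the shared light chain, from 187, 185 and 185 to 297, 273 and 326 CPM. HLA-C went from 542, 517 and 530.0 to 854, 753 and 853 CPM. The addback libraries lay above all KO libraries for these genes, by folds of 0.76 ± 0.07, 0.69 ± 0.06 and 0.63 ± 0.06. HLA genes share near-identical stretches that counting can split, so folds of single HLA genes are uncertain. TAP1 and TAP2, the transporter that loads peptides into the endoplasmic reticulum, rose by 1.89 ± 0.14 and 1.66 ± 0.11 (edgeR adjusted p = 0.000161 and 8.13e-05).

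None of 17 tested chemokines and cytokines, 16 NF-kB factors and targets or 11 feedback regulators of cytokine signalling was at least 2-fold above both KO and WT. Both well expressed genes of the NF-kB list were not called (NFKBIA, an inhibitor of NF-kB that feeds back on it, was called but lay below 50 CPM in KO, with a fold of 0.68). The phosphatases PTPN11 and PTPN1 of the feedback list fell by 0.17 and 0.14 on the log2 scale, PTPN1 without a call once the background was subtracted.

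The 87 genes above both groups, UBE3D left out, varied together among the addback libraries. Addback 3 was the highest of the 3 libraries for 85 of them, addback 2 the lowest for 75 and addback 1 the lowest for 12. The estimated background was lowest in addback 1 and highest in addback 3, and UBE3D was lowest in addback 3; the part of either in this variation was not tested. Markers of other cell types were read beside these results. Of 10 blood and immune markers 8 were called higher, but only CD68, a lysosomal protein, was above WT as well; their summed level was 38.9 to 46.6 CPM in KO, 83.7 to 142 CPM in addback and 49.9 to 131 CPM in WT, with none at 0 in addback. PTPRC (CD45), the defining marker of blood cells, was at 0.438, 0.286 and 0.256 CPM in KO, 3.96, 12.8 and 16.4 CPM in addback and 6.55, 11.4 and 43.9 CPM in WT. The summed levels of kidney tubule, fibroblast, endothelial and liver markers were 24.7 to 32.5, 50.5 to 57.7, 2.64 to 3.53 and 0.307 to 1.13 CPM in KO and 71.8 to 215, 79.9 to 165, 24.6 to 97.6 and 16.1 to 71.1 CPM in addback, with like ranges in WT. The part of these markers in the results was not tested. The labelled line could be checked only by lineage markers: those of nephron progenitors summed to 157 to 166 CPM in KO and 168 to 199 CPM in addback, and those of the adrenal and neural lineage to 294 to 325 and 367 to 386 CPM.

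Among the well expressed genes outside the interferon response, targets of p53 and ATF4 leaned higher on the scale of low-background genes but centred near 0 with factors from all genes. Of 15 well expressed p53 targets 13 were called higher and none lower (16.6% of all well expressed genes were called higher), and their median fold was 0.34. Subtraction of the background left 10 called, as did leaving out KO library 2, but with factors from all genes none was called and the median was -0.0025. The level summed over the list was 1749 to 2194 CPM in KO and 2609 to 2794 CPM in addback. FDXR, a mitochondrial reductase, rose by 0.89 ± 0.10 and TP53I3, an oxidoreductase, by 1.19 ± 0.16. CDKN1A, the cell cycle inhibitor p21, went from 234, 178 and 227 to 316, 286 and 307 CPM (fold 0.51 ± 0.10) and MDM2, the ubiquitin ligase of p53, from 328, 244 and 339 to 407, 383 and 441 CPM (fold 0.43 ± 0.11). Both, chosen after their values were seen, were higher in every addback library; KO 2 was the lowest library, and without it the folds were 0.39 and 0.30.

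Of 14 well expressed targets of ATF4, the factor of the integrated stress response, 12 were called higher and none lower (median 0.27, and -0.06 with none called with factors from all genes). DDIT4, an inhibitor of mTORC1, was at 42.4, 30.1 and 42.3 CPM in KO, 65.4, 67.3 and 67.4 CPM in addback and 55.1, 47.9 and 57.5 CPM in WT. DDIT3 (CHOP) was at 15.4, 14.8 and 15.8 CPM in KO, 24.7, 25.7 and 24.9 in addback and 8.97, 10.9 and 9.81 in WT. Both rose, by 0.80 ± 0.13 and 0.71 ± 0.11, and every addback library lay above every KO and WT library, although the difference of DDIT4 from WT was not called (edgeR adjusted p = 0.192). Among 19 tRNA synthetases 3 were called higher and 1 lower; WARS, which is interferon-stimulated as well, rose by 0.66 ± 0.08. The folds of chaperones of the endoplasmic reticulum centred near 0 (3 higher and 1 lower of 14, median 0.05, and -0.29 with factors from all genes). Of 18 cytosolic chaperones 3 were called higher and 9 lower (median -0.13); with the background subtracted 6, and with 2 times the background none, were called lower (medians -0.075 and -0.04). HSPA1A rose by 0.47 ± 0.08, with a near-identical copy that counting may split, while HSPD1, the mitochondrial chaperonin, fell by 0.28 on the log2 scale.

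Immediate early genes and Notch genes leaned the same way, with medians that also turned negative with factors from all genes. Of 6 well expressed immediate early genes 5 were called higher (median 0.29, and -0.05 with factors from all genes); ATF3, a stress-induced repressor, was at 67.2, 76.96 and 66.7 CPM in KO, 111, 101 and 110.0 CPM in addback and 29.9, 29.8 and 30.7 CPM in WT. Of 8 Notch genes 6 were called higher (median 0.23, and -0.11 with factors from all genes). With the background subtracted 5 were called higher and 1 lower, and with 2 times the background 2 and 1. HES4, a repressor induced by Notch, went from 58.97, 71.5 and 71.3 to 149, 164 and 136 CPM (fold 1.15 ± 0.12), beside 103, 81.3 and 104 CPM in WT, and the receptor NOTCH3 from 89.4, 72.0 and 95.1 to 126, 132 and 131 CPM (fold 0.60 ± 0.10). AGRN, a proteoglycan of basement membranes, rose by 0.91 ± 0.05. LRP1, a large endocytic receptor, was at 77.5, 47.7 and 76.9 CPM in KO, 135, 164 and 171 CPM in addback and 105, 165 and 125 CPM in WT. KO library 2 was the lowest, and without it the fold of 1.22 ± 0.21 was 1.02. With the estimated background subtracted the LRP1 fold was 0.93, and with 2 times that background 0.52. Addback was not called against WT for LRP1 (fold 0.25). LAMA1, a laminin chain with a long coding sequence, had a fold of 0.78 ± 0.18 that became -0.12 when 2 times the estimated background was subtracted.

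Below 50 CPM in KO, several regulators rose well clear of the estimated background. ID1 and ID3, targets of BMP signalling that block differentiation factors, went from 3.72, 2.61 and 3.99 to 15.04, 13.8 and 14.97 CPM and from 18.4, 11.1 and 16.99 to 46.1, 47.3 and 48.3 CPM, and in WT ID1 was at 12.1, 13.6 and 11.3 CPM and ID3 at 42.4, 36.4 and 39.7 CPM. The addback libraries were highest for both, with folds over KO of 2.08 ± 0.21 and 1.60 ± 0.16 (edgeR adjusted p = 0.000715 and 0.000741), but neither was called against WT (0.756 and 0.517). RAD54L, a motor protein of homologous recombination, was at 37.03, 32.2 and 35.5 CPM in KO, 74.2, 79.9 and 78.2 CPM in addback and 74.1, 81.1 and 76.7 CPM in WT, so addback and WT overlapped and KO was apart (fold 1.15 ± 0.06). TEAD2, a DNA-binding partner of YAP, rose by 0.96 ± 0.10, the tight junction protein CLDN7 by 1.40 ± 0.15, the metallothionein MT2A by 1.30 ± 0.12 and HMOX1, which degrades haem, by 0.96 ± 0.15.

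The list of collagen, matrix and proteases held 9 genes called higher and 8 called lower of 22 (median 0.15, and -0.19 with factors from all genes), with COL4A1 and COL4A2, chains of basement membrane collagen, among those that fell (folds -0.38 and -0.37, and -0.23 and -0.30 without KO 2).

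Lipid genes held both directions. Of 18 well expressed genes of sterol synthesis and uptake 7 were called higher and 1 lower (median 0.10, and -0.24 with factors from all genes). STARD4, a sterol carrier, was at 65.5, 52.2 and 60.6 CPM in KO, 86.7, 83.9 and 94.8 CPM in addback and 110.2, 106 and 112 CPM in WT, and INSIG1, which retains the sterol sensor, at 119, 103 and 120.3 CPM in KO, 149, 149 and 148 in addback and 319, 301 and 326 in WT. Both were higher in every addback library than in KO (folds 0.57 ± 0.08 and 0.38 ± 0.06), and addback lay below WT. INSIG1 was added after its values were seen. FADS1, a fatty acid desaturase, rose by 0.52 ± 0.07, and ACLY, which makes cytosolic acetyl-CoA, fell by 0.22 on the log2 scale. APOE, the lipoprotein of lipid export, was at 51.9, 46.7 and 57.1 CPM in KO, 86.2, 85.8 and 79.6 CPM in addback and 19.8, 19.04 and 16.7 CPM in WT (fold over KO 0.69 ± 0.08). CLU, a secreted chaperone of the same lipid export list, moved the other way, from 326, 395 and 319.6 to 216, 204 and 186 CPM (fold -0.78 ± 0.09), with 232, 243 and 211 CPM in WT. IRS4, an adaptor of insulin signalling that HEK293 cells express highly, was at 233, 155 and 241 CPM in KO, 345, 309 and 352 CPM in addback and 861, 814 and 848 CPM in WT (fold 0.68 ± 0.14 over KO, 0.50 without KO 2). With factors from all genes STARD4, INSIG1, FADS1 and IRS4 were not called, nor were CDKN1A, MDM2, WARS, HSPA1A, ATF3, NOTCH3, NFKBIA and HLA-C.

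**Figure D3:**
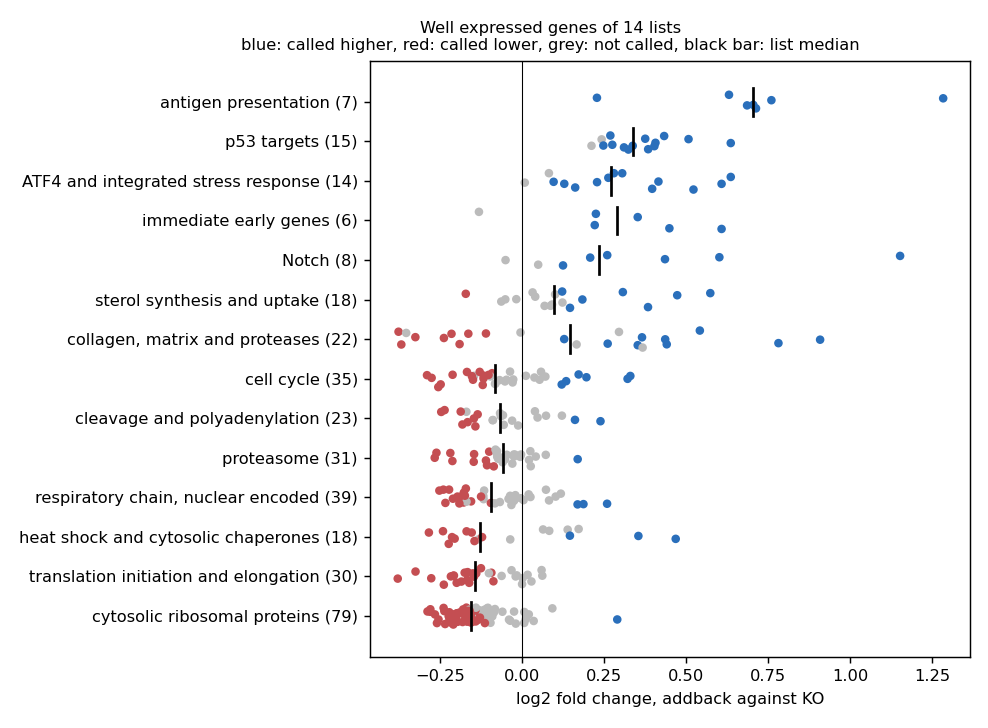
Log2 fold of addback over KO (x axis) for the well expressed members of 14 gene lists (rows, with the number of genes); each point is 1 gene, coloured by its edgeR call, and the black bar is the list's median. Antigen presentation, p53 and ATF4 genes lie mostly right of 0 and genes of ribosomes and translation mostly left of it; with scaling factors from all genes every point would move left by about 0.34, so that smaller positive values change sign.

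Many genes of the translation machinery were slightly lower in addback. Of 79 well expressed genes for cytosolic ribosomal proteins, 50 fell and 1 rose (21.5% of all well expressed genes were called lower), with a median fold of -0.16. It was -0.49 with factors from all genes, -0.093 with the background subtracted and -0.028 with 2 times the background. Of 30 translation factors 19 were called lower and none higher (median -0.14, and -0.48, -0.085 and -0.035 under the same 3 settings). With the background subtracted 22 ribosomal protein genes and 14 translation factors were called lower, and with 2 times the background 5 and 4. EIF3I, a subunit of the factor that loads the small ribosomal subunit, went from 273, 289 and 260.1 to 221, 213 and 198 CPM, with 227, 221 and 209 CPM in WT. RPS23 went from 758, 713 and 727 to 618, 626 and 555 CPM, with 587, 544 and 528 CPM in WT. Neither overlapped between addback and KO, and both did between addback and WT (folds over KO -0.38 ± 0.05 and -0.29 ± 0.05, edgeR adjusted p = 0.00201 and 0.00319). Processed pseudogenes near-identical to ribosomal protein genes may share their reads.

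Smaller falls of the median were seen in other housekeeping lists, beside 21.5% of all well expressed genes called lower. Called lower were 16 of 39 nuclear-encoded genes of the respiratory chain (3 higher, median -0.10), 10 of 31 proteasome genes (1 higher, median -0.06), 12 of 38 genes for mitochondrial ribosomal proteins (1 higher, median -0.05) and 14 of 35 cell cycle genes (6 higher, median -0.08), with all 4 medians between -0.44 and -0.39 with factors from all genes. With the background subtracted 13.4% of all well expressed genes were called lower, a share that the mitochondrial ribosomal list no longer exceeded. The counts called lower in the 4 lists were then 10, 6, 5 and 7 and the medians -0.06, -0.017, -0.033 and -0.047. With 2 times the background they were 3, 3, 2 and 6, and the medians lay between -0.024 and 0.018, with 7, 6, 3 and 8 called higher. PLK1, a mitotic kinase, fell from 222, 219 and 219 to 187, 185 and 173 CPM, and CDKN1B, the cell cycle inhibitor p27, from 127, 133 and 130.1 to 109.6, 107 and 103 CPM. Neither overlapped (folds -0.28 ± 0.03 and -0.29 ± 0.04). Of 23 well expressed genes of cleavage and polyadenylation, the complex around CPSF3, 8 were called lower and 2 higher (median -0.07), and 5 lower and none higher with the background subtracted. WDR33, which reads the poly(A) signal, went from 145, 145 and 144 to 117, 121 and 128 CPM (fold -0.25 ± 0.04). The mitochondrially encoded genes were not in the set tested.

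Large falls were few. KRT17, a keratin, was at 98.01, 248 and 90.4 CPM in KO, 68.04, 68.6 and 62.1 CPM in addback and 11.6, 14.8 and 11.9 CPM in WT. KO library 2 was far above the other KO libraries: the fold was -1.13 ± 0.34 with it and -0.51 without it (edgeR adjusted p = 0.0205 and 0.0129), and with the background subtracted it was not called. TAGLN (transgelin), an actin-binding protein, showed the same library apart, at 15.7, 42.6 and 15.2 CPM in KO and 5.49, 7.12 and 6.5 CPM in addback (fold -1.94, without KO 2 -1.27). MYH9, non-muscle myosin, went from 1385, 1892 and 1346 to 1090.2, 1015 and 999 CPM and CSRP1, a LIM protein of actin bundles, from 82.4, 123 and 81.1 to 69.1, 68.4 and 60.2 CPM. They were lower in every addback library than in any KO library, with folds of -0.57 ± 0.12 and -0.53 ± 0.15, or -0.40 and -0.31 without KO 2. Of the 1080 well expressed genes called lower, 14 were over 1.2 times higher in KO 2 than in the mean of the other KO libraries, and 11 of these were called without it. VIM, the intermediate filament of mesenchymal cells, fell by 0.46 on the log2 scale, and SMAD7 and SMAD3 of TGF-beta signalling by 0.39 and 0.30.

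A further group of falls did not rest on KO 2. HIST1H2BK, a histone gene whose transcripts can be polyadenylated, was at 172, 167 and 171 CPM in KO, 111, 101 and 105 CPM in addback and 73.1, 71.2 and 74.3 CPM in WT. HIST1H1C, a linker histone, was at 80.8, 69.0 and 78.5 CPM in KO, 53.7, 53.8 and 53.7 in addback and 23.99, 20.5 and 23.6 in WT. Addback lay between KO and WT for both, with folds over KO of -0.68 ± 0.04 and -0.50 ± 0.07, and HIST1H2AC fell by 0.64 on the log2 scale. Poly(A) selection takes most replication-dependent histone RNA out of view: 2 of 65 tested histone genes were well expressed. MTURN, a regulator of differentiation, was at 84.9, 80.6 and 85.2 CPM in KO, 60.0, 57.6 and 56.2 CPM in addback and 88.5, 84.8 and 91.8 CPM in WT. PEX6, a peroxisomal ATPase, was at 76.2, 74.5 and 74.96 CPM in KO, 51.8, 58.1 and 50.6 in addback and 64.7, 67.3 and 60.97 in WT. Their folds were -0.53 ± 0.04 and -0.49 ± 0.06 (edgeR adjusted p = 0.000278 and 0.00153). For MTURN and PEX6 addback lay below WT as well as KO, with folds of -0.61 and -0.27 against WT. AMH, a hormone of the TGF-beta family, fell by 0.49 on the log2 scale, and DOK3, an adaptor below 50 CPM, by 1.17.

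**Figure D4:**
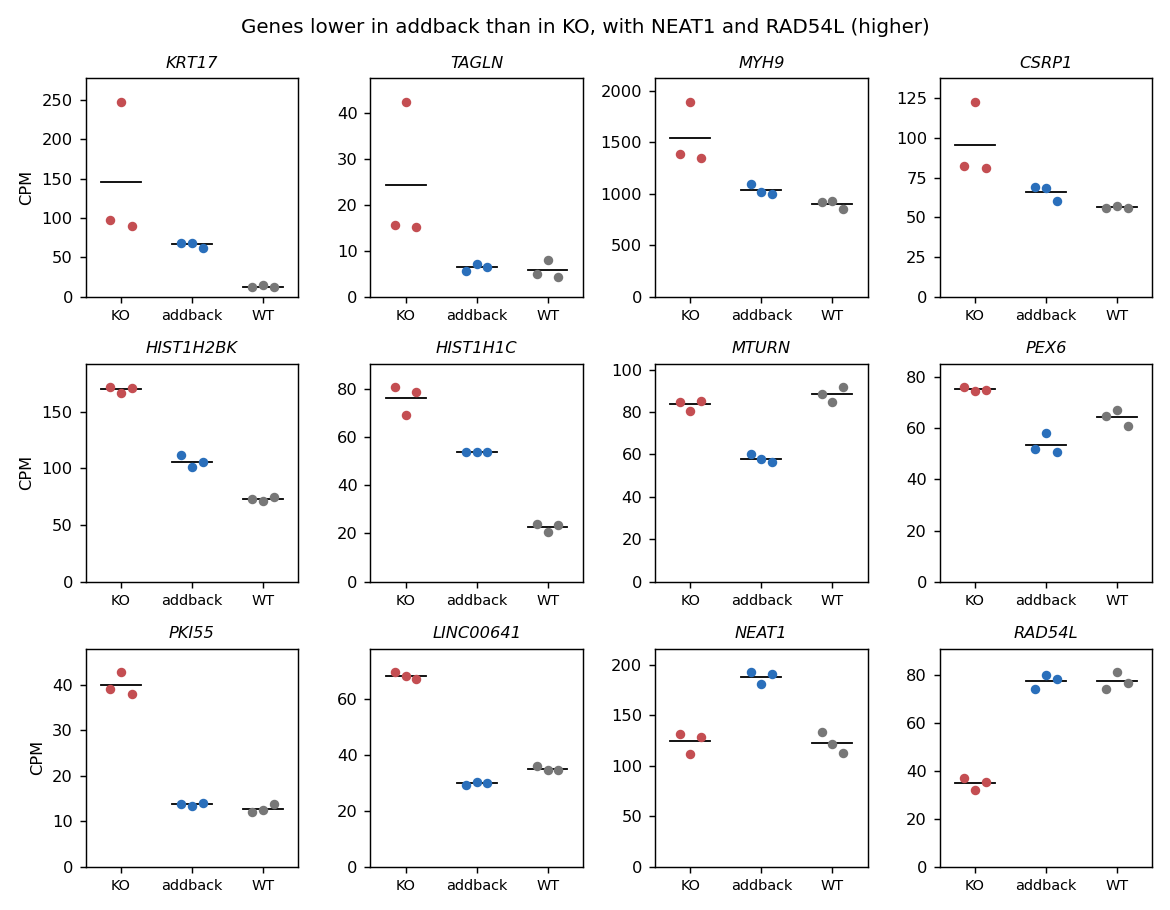
Level in each library, in CPM on linear axes from 0, of 10 genes lower in addback than in KO and, for comparison, of NEAT1 and RAD54L, which are higher; each point is 1 library and the bar is the group's mean. KO library 2 stands above the other KO libraries for KRT17, TAGLN, MYH9 and CSRP1, and WT lies below addback, above it or level with it depending on the gene.

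Noncoding genes were read for direction with the background in mind. Of 2468 noncoding genes tested 1248 (50.6%) were called higher and 39 (1.58%) lower. Those called higher had a median ratio of 3.74 between addback 2 and 3 and addback 1, beside 4.59 for odorant receptors. It was 1.04 for the set of 88, whose selection favours a low ratio. Of the 1248, 8 were called higher than WT too. The largest folds were at pseudogenes with 0 counts in KO, such as GUCY2EP (at least 312-fold, floor of 3 counts over the KO group) and SPATA31D5P (at least 296-fold). GUCY2EP was at 3.29, 12.96 and 13.1 CPM in addback and 2.55, 14.5 and 21.02 CPM in WT. OR8G2, an odorant receptor pseudogene, was also among the 6 largest, at least 163-fold higher. Among the genes far above background the rule named the mucins MUC2 and MUC19, but their background was estimated from matched coding lengths of only 393 and 1055 bases, and their ratios between addback 2 and 3 and addback 1 were 3.05 and 3.84. MUC19 was at 0.84, 0.214 and 0.64 CPM in KO, 61.6, 241 and 232 CPM in addback and 64.1, 132 and 303 CPM in WT, so addback and WT overlapped.

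The 8 noncoding genes called higher than in both KO and WT included BISPR, HCP5 and NEAT1; with factors from all genes BISPR alone of the 8 kept its call over KO (edgeR adjusted p = 0.145 for NEAT1 and 0.0961 for HCP5). BISPR (chromosome 19, 17405686-17415736, plus strand), a long noncoding RNA whose gene starts next to that of BST2 on the other strand, was at 0.292, 0.5 and 0.256 CPM in KO, 8.92, 6.24 and 12.3 CPM in addback and 0.37, 0.291 and 0.272 CPM in WT (fold 4.70 ± 0.51). Like BST2 it was lowest in addback 2 and highest in addback 3, and reads of overlapping transcripts on both strands cannot be told apart if the counting did not use strand. HCP5, within the HLA region, rose by 0.70 ± 0.19. NEAT1 (chromosome 11, 65422798-65445538, plus strand), the scaffold RNA of paraspeckles, was at 132, 112 and 129 CPM in KO, 193, 181 and 191 CPM in addback and 133, 122 and 112 CPM in WT. It rose by 0.60 ± 0.07 (edgeR adjusted p = 0.00172), and by 0.26 with factors from all genes. MALAT1, its neighbour on the chromosome and a component of nuclear speckles, went from 227, 212 and 248 to 289, 303 and 328 CPM (fold 0.42 ± 0.07, and 0.08 with factors from all genes). NEAT1, MALAT1 and BISPR were chosen after their values were seen.

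Among noncoding genes with at least 5 CPM in KO, PKI55, AATBC and LINC00641 fell the most. PKI55 (chromosome 2, 216216889-216220192, plus strand) was at 39.04, 42.8 and 37.9 CPM in KO, 13.8, 13.3 and 13.9 CPM in addback and 12.1, 12.4 and 13.8 CPM in WT. LINC00641 (chromosome 14, 21200079-21206900, minus strand), a long intergenic RNA, was at 69.5, 68.03 and 67.1 CPM in KO, 29.2, 30.4 and 30.05 in addback and 35.99, 34.6 and 34.6 in WT. In both genes KO stood apart, and addback overlapped WT for PKI55 and lay below it for LINC00641, with folds over KO of -1.54 ± 0.09 and -1.19 ± 0.04 (edgeR adjusted p = 2.51e-05 and 2.03e-06). AATBC fell by 1.30 on the log2 scale (without KO 2 -1.17, edgeR adjusted p = 0.0615), MGC16275 by 1.15, SLC25A25-AS1 by 0.78 and GCSHP3, a pseudogene that may share reads with its parent, by 0.69. DANCR and SNHG10, hosts of small nucleolar RNAs, fell by 0.38 and 0.32. In the fit with the background subtracted MGC16275 and SNHG10 were not called. Noncoding genes have no estimated background, so that fit changed them only through its scale and spread.

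**Figure D5:**
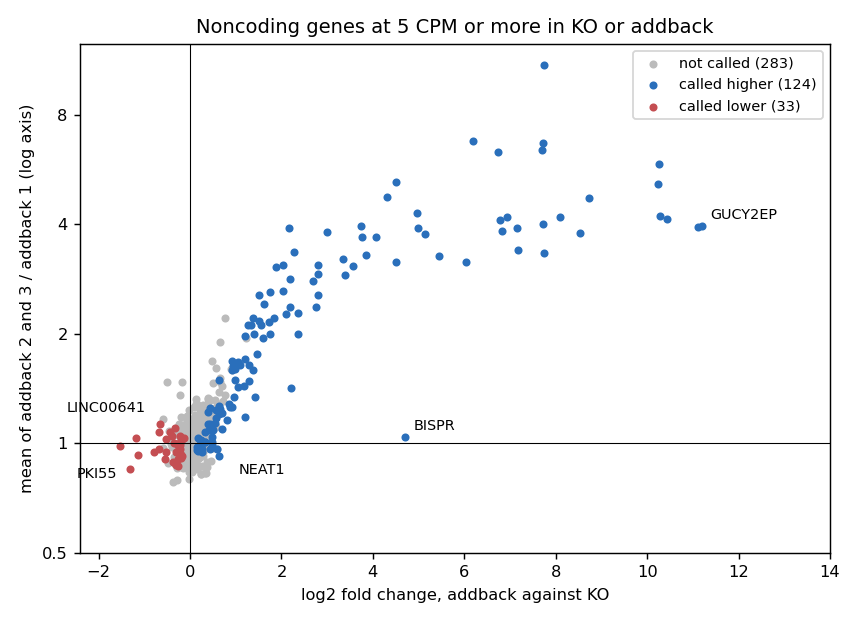
Noncoding genes with a mean of at least 5 CPM in KO or addback: log2 fold of addback over KO (x axis) against the ratio of the mean of addback 2 and 3 to addback 1 (y axis, log scale); each of 440 points is 1 gene, coloured by call (124 higher, 33 lower, 283 not called). Most genes with large rises have ratios well above 1, as odorant receptors do, while BISPR, NEAT1 and the genes called lower lie near a ratio of 1.

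The authors' deposited table for the stretches downstream of genes, where transcripts run past the poly(A) site, lists 2396 regions for the same libraries, 445 higher and 372 lower in addback at their adjusted p under 0.05. In the authors' deposited table there were 17 regions that follow genes of the interferon-rich set of 88, of which 15 were higher and none lower, and 11 of the 25 regions at least 2-fold higher followed these genes. The region after BST2 had a log2 fold of 4.93 there, that after IFIT3 5.38 and that after IFI6 4.85. In the gene counts BST2, IFIT3 and IFI6 themselves had larger folds, of 6.26, 7.595 and 6.05. For TRIM56 and LGALS3BP the region had the larger fold. The set of 88 was selected for higher gene counts, so higher regions after its genes are partly built in. Whether these regions rose beyond their genes was not tested. Among the 9 regions at least 2-fold lower in the authors' deposited table were those after RPL3 (-1.35), SOX4 (-1.17), XRCC5 (-1.11) and RPL14 (-1.09). The XRCC5 region (chromosome 2, 216206294-216216890, hg38) ends where PKI55 begins on the same strand, while XRCC5 itself had a fold of -0.10 ± 0.03 in the gene counts. Region and gene folds come from unlike fits, so they are not on the same scale. The authors' deposited gene folds were lower than those here for UBE3D (7.49 against 7.79), LINC00641 (-1.49 against -1.19) and CLU (-1.05 against -0.78). KRT17 hardly differed (-1.15 against -1.13). Of the noncoding genes with 1 position and a mean of at least 5 CPM in KO or addback, 122 of 413 (29.5%) touched a listed region, as did 12 of the 32 called lower (37.5%).

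By chromosome the medians of well expressed genes were even between addback and KO, from -0.04 (chromosome 21) to 0.05 (chromosome X). The same genes differed by -0.39 on chromosome 9 and -0.21 on chromosome 7 between KO and WT, and by -0.41 and -0.23 between addback and WT. The WT libraries thus stood apart from both KO and addback on these chromosomes.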

How the data were processed

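The comparison used 3 addback and 3 KO libraries of poly(A) RNA; the 3 WT libraries entered the fit for its estimate of spread. Sample groups came from the titles, and columns marked KO.U in the deposited count table were read as addback, since the authors' deposited result tables speak of KO with UBE3D. The deposited table holds whole-number read counts per gene for 26485 genes and an exon length per gene (0 sample columns were left unused). Per the submitters' processing notes, cutadapt 1.8.1, STAR 2.5.2b and DESeq2 were used on hg38, with no role stated. Counting program, annotation and strand setting: not given in the sources used here. Per gene and per region downstream of a gene, the authors' deposited result tables give base means (a signal), log2 fold changes with standard errors, and p-values with adjusted p-values; per the file headers they have the columns of DESeq2.

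edgeR 4.0.16 (R 4.3.3) was run on the counts (quasi-likelihood, robust, genotype as the only term, all 9 libraries). filterByExpr by group left 21994 genes. Coding length was the overlap of the table's exons with GENCODE release 29 coding sequence; 23900 symbols matched directly, 750 through RefSeq, 754 through a RefSeq synonym, and 1081 did not. Each library's background was the median, over 376 odorant receptors, of counts divided by coding length, scaled to each gene's coding length. Noncoding genes thus have no estimated background, and its subtraction took no counts from them. TMM factors came from 5961 genes with an estimated background of at most 10% of the lowest group mean, and with at least 10% of the exon length coding. Noncoding genes have no coding sequence and no protein-coding label. Calls are at a Benjamini-Hochberg adjusted p under 0.05 over all tested genes. Single levels were also compared by exact two-sided permutation of 3 against 3 libraries. The fit was tested on simulated data: of 100 genes changed 2-fold among 21994, 58 were recovered, and of 100 changed 1.5-fold, 36.

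The members and the 55 gene lists were chosen with earlier results of these data known. Named genes are called, do not overlap between groups, and keep their direction with all-gene factors and with background subtracted: the 10 largest folds each way among well expressed genes, 6 each way among noncoding genes with at least 5 CPM, 10 others far above background with at least 20 CPM, 6 others lower with at least 20 CPM in KO, and up to 2 each way per list. UBE3D and CPSF3 were always named. IRF3, JAK1, MAVS, TRAF3, MX2, XAF1, OASL, PTPRC, XRCC5, SLC44A2, PIP4K2A and the genes marked so in the text were added after their values were seen. A few genes that these rules name are not reported here. Libraries of a group were compared for copies, and none was one (chi-square per degree of freedom 1.99 to 33.2). Alternatives covered scaling, filter, tool, background, replicate block, thresholds and each library left out.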

Additional observations from a re-analysis of the deposited data

How the results depend on the processing

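The main counts were 12598 genes called, 1911 of the well expressed (831 higher, 1080 lower), 1287 noncoding and 2571 far above background. They moved by over 1.5 times as follows. With TMM factors from all genes, 3358 well expressed genes were called (39 higher, 3319 lower) and 4134 far above background; with DESeq2 size factors 3660 (69 and 3591) and 4518; with upper quartile factors the split was 189 higher and 2578 lower. With the estimated background subtracted, 4900 genes were called, 1249 of them well expressed, with 672 lower. With 2 times that background the counts were 3179, 929 (504 higher, 425 lower), 843 noncoding and 1255 far above background. No counts were subtracted from noncoding genes, so their number moved only through the refitted scale and spread. A limit of 25 or 100 CPM gave 2963 or 992 well expressed genes called, and a background limit of 5% gave 1585; these change which genes are counted. Addback 1 as the only addback library, chosen after seeing the data, assumes that it varies like the other groups and gave 3364 genes, 385 well expressed (224 higher, 161 lower), 161 noncoding and 598 far above background.

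Leaving out 1 library gave 9609 to 13166 genes called, 1363 to 1808 well expressed (566 to 826 higher, 787 to 982 lower), 1001 to 1357 noncoding and 1869 to 2388 far above background. Whether the replicate numbers pair the libraries was not settled. Deviations of same-numbered libraries correlated at 0.07, 0.11 and 0.29 over well expressed genes, the highest value for each KO library. Addback 1 correlated slightly better with KO 2 (0.08). Over all tested genes the same-numbered values were -0.027, 0.0019 and 0.0059. A fit with the replicate block called 14035 genes, 2355 well expressed (1086 higher, 1269 lower), 1430 noncoding and 2946 far above background. DESeq2's Wald test called 13985, 2263, 1416 and 2962 in the same order.

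Of 175 named genes, all kept their direction and call with DESeq2's Wald test, 144 with factors from all genes, 157 with the background subtracted, 158 to 164 with 1 library left out, and 108 with addback 1 alone. Direction reversed for SNHG12 (-0.014 with factors from all genes) and, with 2 times the background subtracted, for LAMA1 (-0.12), PDIA3 (0.0071) and XRCC5 (0.0087). The cause was not tested.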
